A study of Mus musculus with 5 samples.

Results

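The cells described here are Col2a1-rich chondrocytes of the neonatal mouse growth plate that carried Ucma above a set limit and little Dlk1. They were chosen by thresholds on measured UMI counts (unique molecular identifiers, so that copies of 1 captured transcript are counted once), with k standing for the UMIs of a gene per 10000 UMIs of the cell. A cell was a member when Col2a1 was at 300 k or more, Ucma at 30 k or more, Prg4 and Mgp each under 20 k, Col10a1 under 10 k, Pthlh under 2 UMIs, Dlk1 under 5 UMIs, Ihh under 3 UMIs and Mki67 and Top2a together under 3 UMIs. This left 160 cells of the 82516 that held 200 to 6000 genes and at most 10% mitochondrial UMIs, or 0.194% of them, and 0.347% of the 46081 Col2a1-rich cells. Because these 10 genes chose the cells, their levels are descriptions and no test of them is read. The working name for these cells was Ucma-high resting chondrocytes, with Sfrp1, Shisa3 and Frzb as further markers. The data went against that name, since all 3 of those markers were lower in the members than in cells that differed by the Dlk1 criterion alone. The members are called Ucma-high, Dlk1-low chondrocytes here, where Ucma-high stands for the limit of 30 k only. Cells differing by the Dlk1 criterion held more Ucma, at medians of 58.5 to 81.9 k per pup against 35.9 to 39.6 k in members.

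Cells were dissociated from the cartilage of the distal femur and proximal tibia of 5 littermates labelled C57BL/6J, and each pup gave 1 library. The knock-in was made in C57BL/6J, while the Cre line came from a B6SJLF1 background and was later crossed to C57BL/6J. Pups 1 and 2 carry the label wild type (WT), and whether they held the Cre or the unrecombined conditional allele is not given in the sources used here. Pups 3, 4 and 5 carry the label mutant, which stands for a Trpv4 p.R594H conditional knock-in allele recombined by a Col2a1-Cre transgene, so that chondrocytes and their descendants were heterozygous for the change. The age is postnatal day 5 in the sample labels and day 3 in the design text. Trpv4 encodes a calcium-permeable cation channel of chondrocytes (mm10, chr5:114622152-114658421).

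The growth plate is a layer of cartilage in which resting chondrocytes feed columns of proliferating cells that later enlarge, become hypertrophic and are replaced by bone. Parathyroid hormone-related protein (Pthlh) from the resting end and Indian hedgehog (Ihh) from prehypertrophic cells form a loop that sets the pace of this maturation, and the hedgehog receptor gene Ptch1 and the factor gene Gli1 are themselves raised by hedgehog signalling. Ucma (mm10, chr2:4976122-4985748) encodes a small secreted protein of the cartilage matrix that is typical of the upper growth plate. Dlk1 (mm10, chr12:109452823-109463336) encodes a membrane protein related to Notch ligands that is found in immature chondrocytes. Sfrp1 and Frzb encode secreted proteins that bind Wnt ligands, and Shisa3 encodes a protein that restrains Wnt and FGF receptors.

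Col2a1 was met by 46081 of the 82516 kept cells, Dlk1 by 24666 and Ucma by 22167, and most excluded cells failed more than 1 criterion. Of the cells that met every other criterion, 13474 failed on Dlk1 alone and 2100 on Ucma alone, while 124 failed on Mgp, 33 on Mki67 and Top2a, 12 on Col2a1, 12 on Prg4, 2 on Ihh, 1 on Col10a1 and 0 on Pthlh. Among the members, 17 cells had no Dlk1 UMI and 26, 43, 32 and 42 cells had 1, 2, 3 and 4. The 74 members with 3 or 4 Dlk1 UMIs carried Dlk1 at 321 and Ucma at 4264 counts per 1000000 UMIs (CPM) of their summed cells, and the 147 cells just outside the limit, with 5 or 6, carried them at 517 and 4590 CPM. The 54 members with Ucma from 30 to 35 k carried Ucma at 3216 CPM, beside 2723 CPM in the 97 cells from 25 to 30 k. Ucma stayed near the limit in most members. Its median per cell was 39.1 and 39.6 k in the members of the WT pups and 35.9, 37.9 and 37.1 k in those of the mutant pups, and 58.5 to 81.9 k in the cells that failed on Dlk1 alone.

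Levels below are CPM of the UMIs summed over the member cells of 1 pup, so that n = 5 pups. The members numbered 21 and 20 in the WT pups and 21, 47 and 51 in the mutant pups, with 232509 to 567247 UMIs in a sum. The floor of 3 UMIs lay at 5.29 to 12.9 CPM in the member sums, and fitted fold changes of genes with sums under the floor rest on few UMIs. A member had a median of 16497 and 13434 UMIs in the WT pups and 11103, 10100 and 11580 in the mutant pups. Cells failing on Dlk1 alone (Dlk1 neighbours) were shallower, at 6788 to 11312, and those failing on Ucma alone (Ucma-low neighbours) were deeper, at 15102 to 22761. As the Dlk1 limit is a number of UMIs, depth and the limit are linked. The comparisons with both kinds of neighbours were repeated with every cell thinned to 3000 UMIs. This left out 0 to 4 members of a pup as too shallow. Members and neighbours were still those chosen at full depth, so the repeat evened depth but left that link in place. It also tested fewer genes, 10266 against the Dlk1 and 5382 against the Ucma-low neighbours. Of the genes followed, 7 and 12 lost their call there, not all of them named below. Pups shared 55 cell barcodes over all pairs of libraries, none of them among members. Of the members, 3 held 3 or more UMIs of blood and vessel markers, and 18 had Col1a1, a collagen of bone and perichondrium, at 100 k or more, 11 of them in pup 4. Such Col1a1-high cells were 2845 of the 13474 Dlk1 neighbours and 110 of the 2100 Ucma-low neighbours. They were also 103 of the 328 Pthlh-positive cells, a set described below. The marker lists of macrophages, endothelial cells and granulocytes summed to at most 20.4, 10.9 and 5.43 CPM in any member sum. A tendon list was higher, at 24.4 and 148 CPM (WT) and 64.5, 357 and 17.6 CPM (mutant) in members. Its sums in the Dlk1 neighbours were 94.8 to 238 CPM, and its part in other values was not tested.

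Members were first set against the 13474 Dlk1 neighbours, which met all the other 8 criteria. Compared with those cells they had less of the Wnt antagonists Sfrp1 and Frzb, of resting zone genes such as Clu and Cd200, of Fgfr1 and of the metallothioneins Mt1 and Mt2. They had more of Ptch1, Fgfr3, Runx2, Sp7 and Panx3, and of enzymes of glycolysis. Over 12602 genes, 999 were higher in members (7.93%) and 1839 lower (14.6%) at an adjusted p under 0.05 (edgeR quasi-likelihood test on sums per pup, pup as a block, Benjamini-Hochberg adjustment). The median log2 fold change of all genes was -0.08. It was -0.399 with Ucma at 50 k or more, where 2 to 12 members per pup remained, and changes of direction in that setting stand beside this offset. The count of calls was 934 after thinning to 3000 UMIs. The split depends on scaling: DESeq2 called 914 higher and 1093 lower, and library size alone 1800 higher and 1169 lower, with the median of all genes then at 0.12. Every gene of the lists that passed kept its direction under both scalings, here and in the comparisons that follow.

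Sfrp1 was at 62.5 and 119 CPM (WT) and 116, 139 and 91.7 CPM (mutant) among members. In the Dlk1 neighbours it was at 253 to 420.0 CPM, so that no pup overlapped, and the log2 fold change was -1.97 ± 0.12, adjusted p = 1.0e-54 (edgeR). For every log2 fold change, ± is a standard error worked back from the fit, as its size over the root of the F statistic. It is not a spread between pups, and the p draws on variance shared over genes. Frzb was at 48.9 and 29.6 CPM (WT) and 73.1, 89.9 and 42.3 CPM (mutant) among members and 264 to 360.4 CPM in the neighbours (log2 fold change -2.74 ± 0.14, adjusted p = 1.4e-81, edgeR). Shisa3 was listed at 0 in members of pups 1, 2 and 3, where 3 UMIs would be 8.15, 11.1 and 12.9 CPM, and at 4.09 and 1.76 CPM in pups 4 and 5. Its level in the neighbours was 20.05 to 26.8 CPM, and the fitted log2 fold change of -4.08 rests on very few member UMIs. Every member sum was below every neighbour sum for all 3 markers. How many of all genes lacked overlap between members and neighbours was not worked out. A lack of overlap between kinds of cells is therefore a description only, here and below.

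In the wider list of Wnt antagonists, which holds these 3 genes, 0 rose and 10 fell of 13 tested (median log2 fold change -1.77). The others that fell included Wif1, which encodes a secreted Wnt inhibitor, Sfrp2, Dkk3, Notum and Apcdd1. Of the Wnt ligands, receptors and response genes, 6 rose and 10 fell of 29 tested (median 0.02): Wnt4, Wnt5b, Tcf7, Nkd1, Rspo3 and Ctnnb1 rose, and the 10 that fell were 4 Frizzled receptor genes with Lrp5, Lrp6, Ror1, Tcf7l1, Tcf7l2 and Lgr6. In the list of resting zone genes, 0 rose and 8 fell of 12 tested (median -2.66), and those that fell were Cd200, Apoe, Clu, Gas1, Spon1, Wif1, Barx1 and Grem1. Clu, which encodes the secreted chaperone clusterin, was at 4.30 to 19.0 CPM in members and 44.0 to 70.0 CPM in the neighbours (-2.77 ± 0.26, adjusted p = 9.8e-24, edgeR). Apoe was at 0 to 4.30 CPM against 11.1 to 30.3 CPM, and its call was lost with a looser Dlk1 limit (under 10 UMIs, adjusted p = 0.0894). Spon1 lost its call without pup 5 (adjusted p = 0.0796). The low-count filter ran over both kinds of sums, so a gene could be tested through the neighbours alone. Run on the member sums alone, it left 5 of the Wnt antagonists and 4 of the resting zone genes. Some of these falls are thus of genes that members hardly held, and the counts are descriptions. The same can apply to the lists below.

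**Figure D1:**
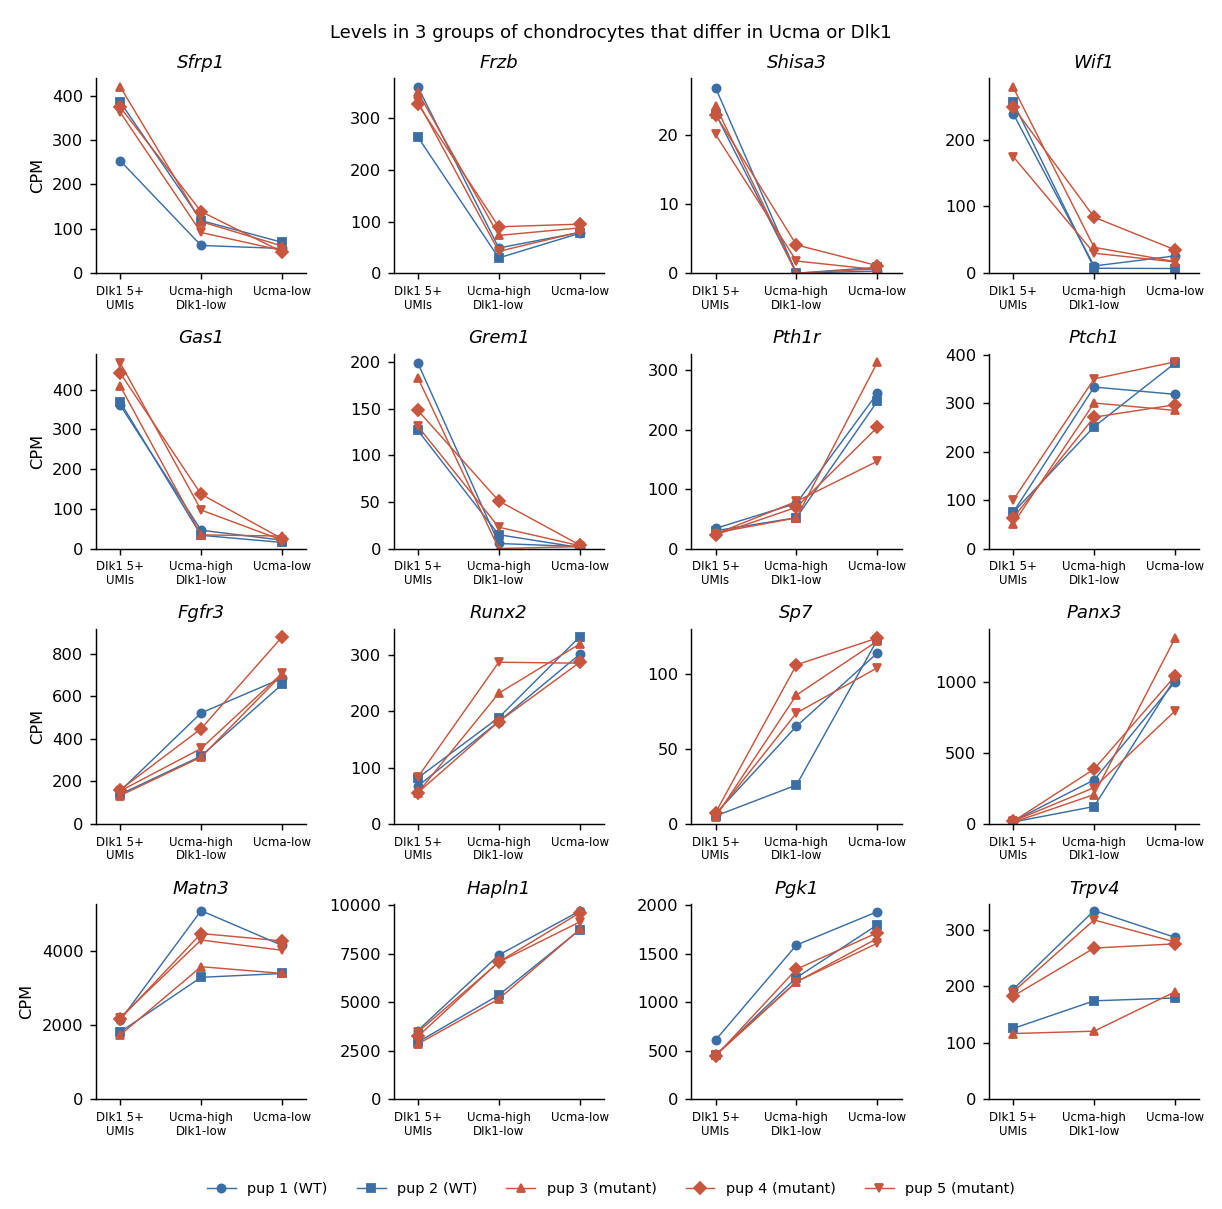
Levels of single genes in CPM (y axis, from 0, own scale in each panel) in Dlk1 neighbours (left), members (middle) and Ucma-low neighbours (right), with 1 point per pup, lines joining the sums of a pup and colours for genotype. Sfrp1 and Frzb of the members lie below every Dlk1 neighbour sum, while Panx3 of the members lies above the Dlk1 neighbours and below the Ucma-low neighbours.

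In the PTHrP and hedgehog list 4 rose and 5 fell of 12 tested (median -0.18). Ptch1 was at 334 and 252 CPM (WT) and 301, 272 and 351 CPM (mutant) in members. The neighbours held 51.3 to 100.4 CPM, and every member sum was above them (log2 fold change 1.85 ± 0.12, adjusted p = 1.7e-53, edgeR). Gli1, which encodes a hedgehog effector, was 62.5 to 100.1 CPM in members and 19.0 to 33.4 CPM in neighbours (1.37 ± 0.18, adjusted p = 4.4e-13, edgeR). Pth1r, the receptor of Pthlh, was 51.6 to 79.3 CPM in members and 23.0 to 33.9 CPM in neighbours (1.12 ± 0.18, adjusted p = 7.7e-09, edgeR), and its call was lost after thinning (adjusted p = 0.121) and its direction turned with Ucma at 50 k or more (-0.0758). Hhip, a hedgehog-binding protein, also rose (1.05), though not without pup 2 (adjusted p = 0.0587) or after thinning (0.191). The 5 that fell were Gli3, Smo, Cdon, Boc and Gas1, of which the last 3 are co-receptors that bind hedgehog ligands. Ihh and Pthlh themselves were criteria of the rule.

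Of the ligands, receptors and regulators of IGF and FGF signalling, 1 rose and 19 fell of 25 tested (median -1.70). Fgfr3, the receptor that restrains growth plate chondrocytes, was the gene that rose. Its level was 521 and 319 CPM (WT) and 314, 447 and 354 CPM (mutant) in members and 133 to 160.1 CPM in neighbours (log2 fold change 1.18 ± 0.11, adjusted p = 1.5e-26, edgeR), without overlap. Fgfr1 went the other way, at 46.2 to 85.2 CPM in members and 232 to 332 CPM in neighbours (-2.42 ± 0.14, adjusted p = 8.8e-65, edgeR). Fgfr2 also fell (-0.96), along with the FGF feedback genes Spry1, Spry2, Spry4 and Dusp6 and the IGF-binding protein genes Igfbp3, Igfbp4, Igfbp5 and Igfbp7. Igfbp5 was at 22.9 to 84.2 CPM in members and 128 to 216 CPM in neighbours.

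Over the transcription factor list 6 rose and 12 fell of 29 tested (median -0.36). Runx2, which drives chondrocytes towards hypertrophy, was at 182 and 189 CPM (WT) and 232, 182 and 287 CPM (mutant) in members and 55.3 to 83.1 CPM in neighbours (log2 fold change 1.45 ± 0.13, adjusted p = 7.2e-29, edgeR). Sp7, the factor osterix of hypertrophic and bone-forming cells, was at 25.9 to 106 CPM against 4.58 to 7.47 CPM (3.35 ± 0.23, adjusted p = 9.5e-47, edgeR). No pup overlapped for either gene. Dlx5 and Runx3 rose by 2.72 and 2.52 on the log2 scale. Shox2 rose as well. Those that fell included Sox4, Barx1, Erg, Prrx1, Nfia, Nfib, Nfatc1 and Nfatc2. Sox9, the master factor of cartilage, was at 1436 to 3180.3 CPM in members and 1279 to 2086 CPM in neighbours (0.27 ± 0.08, adjusted p = 0.00419, edgeR), a call lost after thinning (adjusted p = 0.677) and without pup 4 or pup 5 (0.131 and 0.0744), and it turned to -0.31 with Ucma at 50 k or more.

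The hypertrophy and mineralization list was divided, as 4 rose and 4 fell of 11 tested (median 0.05). Panx3, a channel protein of prehypertrophic cells, was the largest rise among the named genes. It was at 309.6 and 122 CPM (WT) and 206, 386 and 256 CPM (mutant) in members and 11.4 to 19.1 CPM in neighbours (log2 fold change 3.77 ± 0.14, adjusted p = 2.1e-165, edgeR). Besides Panx3, Sp7, Runx2 and Fgfr3 rose. Ibsp, Spp1, Enpp1 and Vegfa fell, of which the first pair encode mineral-binding proteins and Vegfa a vessel growth factor.

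Structural genes of cartilage did not move as a block. In the cartilage matrix list 7 rose and 15 fell of 30 tested (median -0.24), and with library size alone 10 rose and 11 fell. Matn3, which encodes a matrilin of the growth plate, was at 5081 and 3283 CPM (WT) and 3569.8, 4463 and 4289 CPM (mutant) in members and 1729.8 to 2199 CPM in neighbours (log2 fold change 0.83 ± 0.08, adjusted p = 3.3e-26, edgeR). Its groups did not overlap. Acan, Hapln1 and Snorc, for aggrecan, its link protein and a small cartilage proteoglycan, rose by 0.57, 0.79 and 0.75 on the log2 scale, and Prelp by 1.52. Epyc was 0.22, which no longer passed without pup 1, 4 or 5 (adjusted p = 0.130, 0.259 and 0.304) and turned to -0.45 with Ucma at 50 k or more. Among those that fell were the small leucine-rich proteoglycan genes Dcn, Bgn and Fmod, with Chad, Vcan and Sparc, and Cytl1, whose call was lost without pup 5 (adjusted p = 0.0594). Genes for sulfated sugar chains leaned upwards (10 rose and 6 fell of 28 tested, median 0.10), with Csgalnact1, Chst11, Papss2, Slc26a2 and Ugdh among the risers (Papss2 was -0.23 with Ucma at 50 k or more) and Sulf1, Sulf2 and Has2 among those that fell. For collagen processing 5 rose and 12 fell of 28 tested (median -0.19), which became 10 and 9 with library size alone.

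Of the glycolysis and hypoxia genes 16 rose and 3 fell of 27 tested (median 0.79). Those that rose held the glycolytic enzymes Gpi1, Pfkl, Aldoa, Tpi1, Gapdh, Pgk1, Pgam1, Eno1 and Pkm with Ldha, which makes lactate, and Slc16a3, which exports it. Pgk1 was at 1589 and 1253 CPM (WT) and 1209, 1340.0 and 1211 CPM (mutant) in members, above 443 to 609 CPM in neighbours (log2 fold change 1.25 ± 0.09, adjusted p = 1.8e-44, edgeR). Car12, a carbonic anhydrase of the cell surface, was at 112 to 339 CPM against 19.7 to 36.7 CPM (2.83). Hk2, Vegfa and Ndrg1 fell. With Ucma at 50 k or more, which leaves few members, the calls of Gapdh, Pgk1 and Ldha were lost (adjusted p = 0.171, 0.274 and 0.793).

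**Figure D2:**
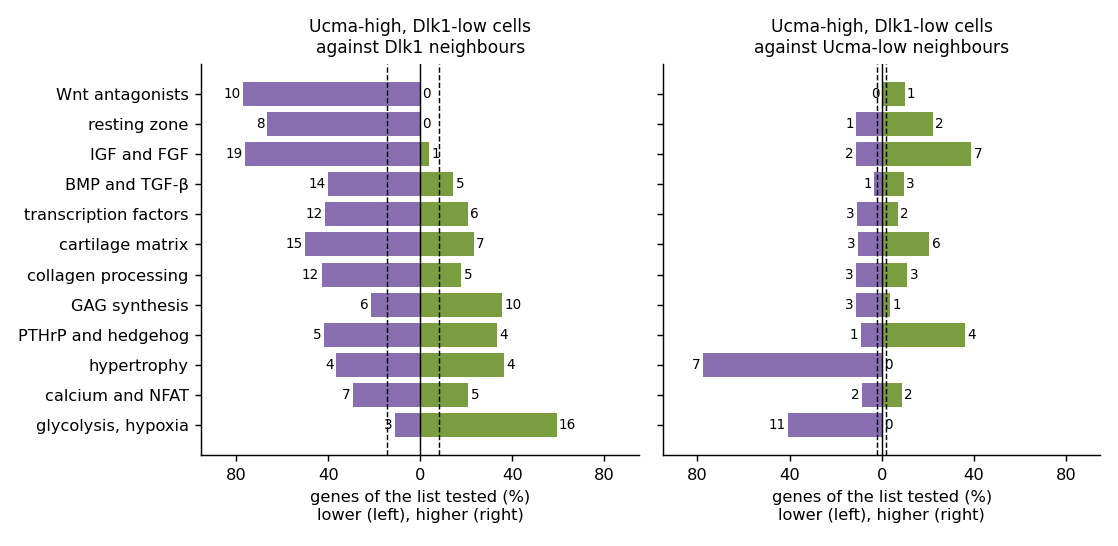
Gene lists in the comparisons of members with Dlk1 neighbours and with Ucma-low neighbours, with bars for the percentage of the tested genes of a list that were higher (right) or lower (left) in members at an adjusted p under 0.05, the number of genes beside each bar and dashed lines at the percentage over all genes tested. Glycolysis and hypoxia genes go up in 16 and down in 3 cases against the Dlk1 neighbours and up in 0 and down in 11 against the Ucma-low neighbours.

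Trpv4 was at 334 and 174 CPM (WT) and 120.4, 268 and 317 CPM (mutant) in members and at 195 and 125 CPM (WT) and 116, 183 and 190.2 CPM (mutant) in the Dlk1 neighbours. Pups 1, 4 and 5 had the higher levels in both kinds of cells. The member sums overlapped those of the neighbours, and the log2 fold change with pup as a block was 0.37 ± 0.12, adjusted p = 0.00944 (edgeR). This call was lost without a low-count filter, without pup 1, 4 or 5, without the block and after thinning, with adjusted p from 0.0593 to 0.307, and the direction turned with Ucma at 50 k or more (-0.0287). In the list of calcium entry, calcineurin and NFAT genes 5 rose and 7 fell of 24 tested (median -0.10). Nfatc1 and Nfatc2, for the calcineurin-dependent factors, were at -1.24 and -1.30 on the log2 scale, and Rcan1, Orai1 and Piezo2 also fell. Ppp3ca, Calm3, Itpr2 and Atp2a2 rose. Without pup 1, 4 or 5 the number of the list that rose was 2, 2 and 1.

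In the list of BMP and TGF-β genes 5 rose and 14 fell of 35 tested (median -0.51). Gdf10, a BMP-like ligand, was at 529.5 and 397 CPM (WT) and 439, 341 and 409 CPM (mutant) in members and 78.8 to 107 CPM in neighbours (log2 fold change 2.06 ± 0.11, adjusted p = 6.1e-76, edgeR), and Bmp7, Smad1, Id1 and Id4 rose with it. Bmp2 to Bmp6, Tgfb3, Inhba and the 4 latent TGF-β binding protein genes Ltbp1 to Ltbp4 were among those that fell. Mt2, which encodes a zinc-binding metallothionein, was at 117 and 322 CPM (WT) and 439, 147 and 130.5 CPM (mutant) in members. The neighbours held 859 to 1478 CPM (log2 fold change -2.75 ± 0.36, adjusted p = 0.00959, edgeR), far above every member sum, and Mt1 was at -1.03 on the log2 scale.

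Where the mean over sums reached 20 CPM and all 5 pups moved 1 way, the largest rises outside the lists were of Il17b, a cytokine (3.54 on the log2 scale), Fxyd2, a subunit of the sodium pump (3.40), Smim31 (3.30), Slc35g1 (3.04), Nos1, a nitric oxide synthase (2.84), and H2-DMb1, a component of MHC class II loading (2.76). Il17b was at 46.2 to 146 CPM in members and 5.19 to 9.24 CPM in neighbours, and H2-DMb1 at 59.3 to 196 CPM against 6.35 to 18.6 CPM. Under the same limits, the largest falls were of Hba-a1 (-3.68), Hs6st2 (-3.50), Chil1 (-3.47), Hba-a2 (-3.38), Steap4 (-3.33), Pdpn (-3.28), Cxcl14 (-3.24), Csf1 (-3.16), Fap (-3.09) and Grem1 (-3.01). All of these but Cxcl14 had a member sum under the floor of 3 UMIs. Among the genes named above, so did Wif1, Ibsp, Spp1, Spon1, Apoe, Clu, Igfbp3 and Spry1. Cxcl14, a chemokine, was at 13.6 to 73.5 CPM in members and 289 to 358 CPM in neighbours. Hba-a1 and Hba-a2 encode hemoglobin, and the erythroid list summed to 4.09 to 133 CPM in members and 109 to 774 CPM in neighbours. Without cells holding 3 or more blood and vessel UMIs, Hba-a1 and Hba-a2 no longer passed (adjusted p = 0.913 and 0.611). The perichondrial list (Col1a1, Col1a2, Col3a1, Postn, Prrx1, Ctsk) also moved with the comparison, at 3824 to 19894 CPM in members and 23241 to 35270.3 CPM in neighbours. Of its genes 0 rose and 5 fell of 6 tested (median -1.93), and its part in the other changes was not tested.

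The cells were next set against the 2100 Ucma-low neighbours, from which they differed by the Ucma criterion alone. Panx3, Pth1r, Fgfr3 and Pgk1, which were higher in members than in the Dlk1 neighbours, were lower in members than in these cells. Sfrp1, Gas1, Fgfr1 and Cxcl14, lower in the first comparison, were higher in this one. The lists did not turn as a whole. In the resting zone list 2 rose (Gas1, Grem1) and 1 fell of 9 tested (median 0.22). The gene that fell was Cd200, lower in members in both comparisons. Of the Wnt antagonists 1 (Sfrp1) rose and 0 fell of 10 tested (median 0.23). Of 10502 genes, 180 were higher in members (1.71%) and 207 lower (1.97%; edgeR, adjusted p under 0.05, median log2 fold change of all genes -0.0034), and DESeq2 called 164 and 144. Without a low-count filter 142 were higher and 448 lower (median of all genes -0.324). With Ucma at 50 k or more 49 were higher and 184 lower (median -0.391). The count of 387 became 223, 255 and 249 without pup 2, 3 or 4, and 187 without the pup block. Of the 48 genes followed in this comparison, 20 lost their call without the block (adjusted p from 0.0555 to 0.460): C4b, Chrdl1, Comp, Cxcl14, Gapdh, Gas1, Gli2, Grb14, Hba-a1, Hhip, Igfbp5, Ldha, Lef1, Mcm5, Runx2, Sp7, Spp1, Srpx2, Tnc and Vldlr. Both comparisons use the same member sums, so their values are given side by side only.

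In the hypertrophy and mineralization list 0 rose and 7 fell of 9 tested (median -0.88), namely Sp7, Runx2, Mef2c, Panx3, Alpl, Spp1 and Fgfr3, and 4 fell without pup 1. Panx3, at 122 to 386 CPM in members, was at 1000.0 and 1024 CPM (WT) and 1307, 1041 and 795 CPM (mutant) in the Ucma-low neighbours (log2 fold change -1.95 ± 0.28, adjusted p = 0.0322, edgeR), a call lost without pup 1 or pup 5 (adjusted p = 0.0598 and 0.0726). Mef2c, a factor that promotes hypertrophy, was at 89.6 and 85.2 CPM (WT) and 142, 129 and 115 CPM (mutant) in members and 235 to 451 CPM in the Ucma-low neighbours (-1.52 ± 0.13, adjusted p = 6.2e-10, edgeR). Spp1, for osteopontin, was at 0 to 13.6 CPM against 35.4 to 133 CPM (-3.25 ± 0.25, adjusted p = 9.8e-11, edgeR), with member sums of pups 2 and 3 under the floor of 3 UMIs, and did not pass with looser Dlk1 limits (adjusted p = 0.131 and 0.126). Alpl, the mineralizing phosphatase, was -1.81 and Fgfr3 -0.88 on the log2 scale. Runx2 (-0.48) lost its call without pup 1, 2 or 4 and Sp7 (-0.65) without pup 1, 2 or 3, and both lost it after thinning, with adjusted p from 0.0655 to 0.227.

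Pth1r was at 76.0 and 51.9 CPM (WT) and 51.6, 69.5 and 79.3 CPM (mutant) in members and 261 and 248 CPM (WT) and 313, 204 and 147 CPM (mutant) in the Ucma-low neighbours. Every member sum was below every Ucma-low sum (log2 fold change -1.67 ± 0.17, adjusted p = 3.2e-07, edgeR) and above every Dlk1 neighbour sum of 23.0 to 33.9 CPM. For the PTHrP and hedgehog list 4 rose and 1 fell of 11 tested (median 0.26), and the 4 that rose were Gli1, Gli2, Hhip and Gas1. Ptch1 itself was at 286 to 386 CPM in the Ucma-low neighbours and 252 to 351 CPM in members (-0.12 ± 0.10, adjusted p = 0.638, edgeR), did not pass and turned to 0.0866 with Dlk1 under 5 k. Gli1 was 0.92, a call lost after thinning (adjusted p = 0.240), and Hhip was 1.21, lost without pup 2 or pup 5 (0.156 and 0.191).

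Among the markers, Sfrp1 rose against the Ucma-low neighbours, which held 48.4 to 69.7 CPM (log2 fold change 0.92 ± 0.16, adjusted p = 2.7e-04, edgeR), and lost its call after thinning (adjusted p = 0.164). Frzb was at 77.2 to 94.97 CPM in the Ucma-low neighbours (-0.55 ± 0.17, adjusted p = 0.0638, edgeR) and did not pass with all cells, but passed on the lower side without pup 4 (adjusted p = 0.0252) and without Col1a1-high cells (0.00545). In the IGF and FGF list 7 rose and 2 fell of 18 tested (median 0.49), and 4 rose without pup 2. Fgfr1 was 0.93 on the log2 scale. Igfbp5 was 1.22, which did not pass without Col1a1-high cells (adjusted p = 0.841) and turned to -0.50 with Dlk1 under 5 k.

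Glycolysis and hypoxia genes had 0 higher and 11 lower of 27 tested (median -0.33), and 7 lower without pup 2. Pgk1 was at 1607 to 1933 CPM in the Ucma-low neighbours, above 1209 to 1589 CPM in members (-0.39 ± 0.07, adjusted p = 6.7e-04, edgeR), and Bnip3 was -0.59. The cartilage matrix list held 6 higher genes, Matn4, Chad, Fmod, Dcn, Bgn and Sparc, and 3 lower, Hapln1, Matn2 and Comp, of 29 tested (median 0.11), with 5 lower without pup 5. Matn3 was 0.11 ± 0.07, adjusted p = 0.441 (edgeR) and Trpv4 0.02 ± 0.11, adjusted p = 0.973 (edgeR), neither of which passed. Matn3 changed sign in 2 settings and Trpv4 in 6, library size alone among them. Gdf10 was -0.54, lower in members. Mcm2, Mcm3, Mcm5 and Mcm6, subunits of the replicative helicase, were each higher (1.15, 0.96, 1.11 and 0.88). They were the called genes of the cell cycle list, of which 4 rose and 0 fell of 16 tested, with 8 of the 16 above 0 and a median of 0.00204. The call of Mcm2 was lost without pup 2 or 3, that of Mcm3 without any 1 of the 5 pups and that of Mcm5 without pup 1, 2, 3 or 5, with adjusted p from 0.0514 to 0.340, and that of Mcm6 after thinning (0.521).

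Under the same limits of level and direction, the largest rises against the Ucma-low neighbours were of C4b, a complement component (2.29), Srpx2 (2.10), Cxcl14 (2.09), Gas1 (1.70), the Wnt effector gene Lef1 (1.70), Scara3 (1.67), Tnc, for tenascin C (1.54), Nr4a3 (1.49), Plac9 (1.47) and Tspan6 (1.33). C4b was at 122 and 51.9 CPM (WT) and 30.1, 96.0 and 98.7 CPM (mutant) in members and 7.28 to 26.8 CPM in the Ucma-low neighbours, without overlap. The largest falls under them were of Chrdl1, a BMP antagonist (-3.40), Spp1, Hba-a1 (-2.94), Wnt4 (-2.07), Panx3, Lgmn (-1.77), Grb14 (-1.69), Pth1r, Vldlr (-1.60) and Mef2c. Chrdl1, Spp1, Hba-a1, Wnt4, Grb14 and Vldlr had a member sum under the floor. Without cells holding blood and vessel UMIs Hba-a1 turned to 0.43. The erythroid list was at 16.2 to 422 CPM and the perichondrial list at 2405 to 9018 CPM in the Ucma-low neighbours. Of the perichondrial markers 3 rose and 0 fell of 6 tested, namely Col3a1, Postn and Ctsk (median 0.62), beside the rises of Dcn, Bgn, Fmod, Sparc, Tnc, Gas1, Cxcl14 and Igfbp5. Without Col1a1-high cells 1 of the 6 rose (median 0.56), as with pup 2 or pup 4 left out, and without the pup block 0 did. The part of these markers in the other rises was not tested.

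A further set was added after the data were seen, since 0 cells failed on Pthlh alone. It held 328 Col2a1-rich cells with 2 or more Pthlh UMIs that met the other criteria with Ucma and Dlk1 left free, 27 to 88 per pup. Dlk1, Ucma and Pthlh thus differ between these cells and the members by the choice. Members held less of 6 of the 8 Wnt antagonists tested and of Igfbp5 than these cells. They held more of Sp7, Fgfr3 and 13 of the 25 glycolysis and hypoxia genes tested. Of 5428 genes, 659 were higher in members (12.1%) and 639 lower (11.8%; edgeR, adjusted p under 0.05), and DESeq2 called 629 in all, 279 higher and 350 lower. With no low-count filter 517 were higher and 969 lower (edgeR). Without pup 1 or pup 5 the count of 1298 became 859 and 846.

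Sfrp1 was at 203 to 379 CPM and Frzb at 147 to 303 CPM in the Pthlh-positive cells (-1.56 ± 0.14, adjusted p = 1.0e-07 and -2.16 ± 0.17, adjusted p = 8.9e-09, edgeR). Of the Wnt antagonists 0 rose and 6 fell of 8 tested (median -1.86), of the resting zone list 0 rose and 4 fell of 7 tested (median -2.01), and of the IGF and FGF list 1 rose and 13 fell of 16 tested (median -1.07). The 4 resting zone genes that fell became 2 without pup 5 and 6 with DESeq2 or without pup 3. Of the glycolysis and hypoxia genes 13 rose and 1 fell of 25 tested (median 0.51), beside a median of 0.03 over all genes. Sp7 was at 0 to 15.3 CPM in the Pthlh-positive cells (3.28 ± 0.49, adjusted p = 7.4e-04, edgeR), at 0 in pup 3 and under the floor of 3 UMIs in pups 3 and 5, so that the fold rests on few UMIs. Pth1r was 1.03, Fgfr3 0.81, Runx2 1.38, Gdf10 2.19 and Matn3 1.23 on the log2 scale, all higher in members, and Igfbp5 was -3.17. Ptch1 was 0.92, a call lost without pup 1, 3 or 5 (adjusted p from 0.0644 to 0.105). Trpv4 was at 106 to 196 CPM in the Pthlh-positive cells (0.59 ± 0.13, adjusted p = 0.00204, edgeR), and did not pass without the pup block (0.0883).

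The 10 largest rises under these limits included Xlr3c (3.48), Ppa1 (2.91), Fyb (2.84), Car12 (2.83), Il17b (2.57), Slc25a13 (2.54), Nos1 (2.50), Rras2 (2.28) and Pamr1 (2.24), besides Sp7. The largest falls under them were of Eln, for elastin (-3.61), the collagen gene Col8a1 (-3.38), Igfbp5, Hs6st2 (-3.12), Tnn (-3.07), Adgrg6 (-2.93), Itgbl1 (-2.91), Cxcl14 (-2.84), Fap (-2.82) and C1qtnf2 (-2.81). Xlr3c, Fyb, Nos1, Rras2 and Pamr1 had a Pthlh-positive sum under the floor, and Col8a1, Hs6st2, Tnn, Adgrg6, Itgbl1, Fap and C1qtnf2 a member sum under it. Car12 lost its call without pup 4 or pup 5 (adjusted p = 0.0833 and 0.0830), and Ppa1 without pup 1, 4 or 5 (0.0598 to 0.0807). The perichondrial list was at 23614 to 50131 CPM in the Pthlh-positive cells, and of its genes 0 rose and 6 fell of 6 tested.

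The Dlk1 limit lay within a range of Dlk1 over which the summed levels of other genes changed. The 13634 cells that met the other 8 criteria were divided by Dlk1 per 10000 UMIs into 6 bins, and each bin was summed over all pups, as a description with no test. From the 225 cells under 5 k to the 4750 cells at 60 k or more, Sfrp1 went from 95.8 to 415 CPM, Frzb from 44.7 to 420.3 and Mt2 from 173 to 1447. Ucma went with them, from 4052 to 7464 CPM. Ptch1 went the other way, from 351 to 36.5 CPM, as did Runx2 (259 to 33.5), Fgfr3 (428 to 123), Matn3 (4423 to 1671), Acan (8245 to 3772) and Trpv4 (262 to 156). Sfrp5, of the same gene family as Sfrp1, went from 114 over 183 at 10 to 20 k to 26.4 CPM. In pup 3 Trpv4 was at 132, 159, 134, 105, 116 and 118 CPM over the bins, a smaller fall than in the pups together. Depth fell along the same bins in every pup, from a median of 12635 to 20808 UMIs per cell in the lowest bin to 6552 to 10396 in the highest, and Col1a1 went from 3945 over 15117 at 20 to 40 k to 10378 CPM, and the part of either in these gradients was not tested. The cells just inside and just outside the limit were as follows, with no test. Members with 3 or 4 Dlk1 UMIs held Sfrp1 at 119, Ptch1 at 273, Fgfr3 at 392 and Matn3 at 4174 CPM, and cells with 5 or 6 held them at 108, 313, 358 and 3752 CPM.

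**Figure D3:**
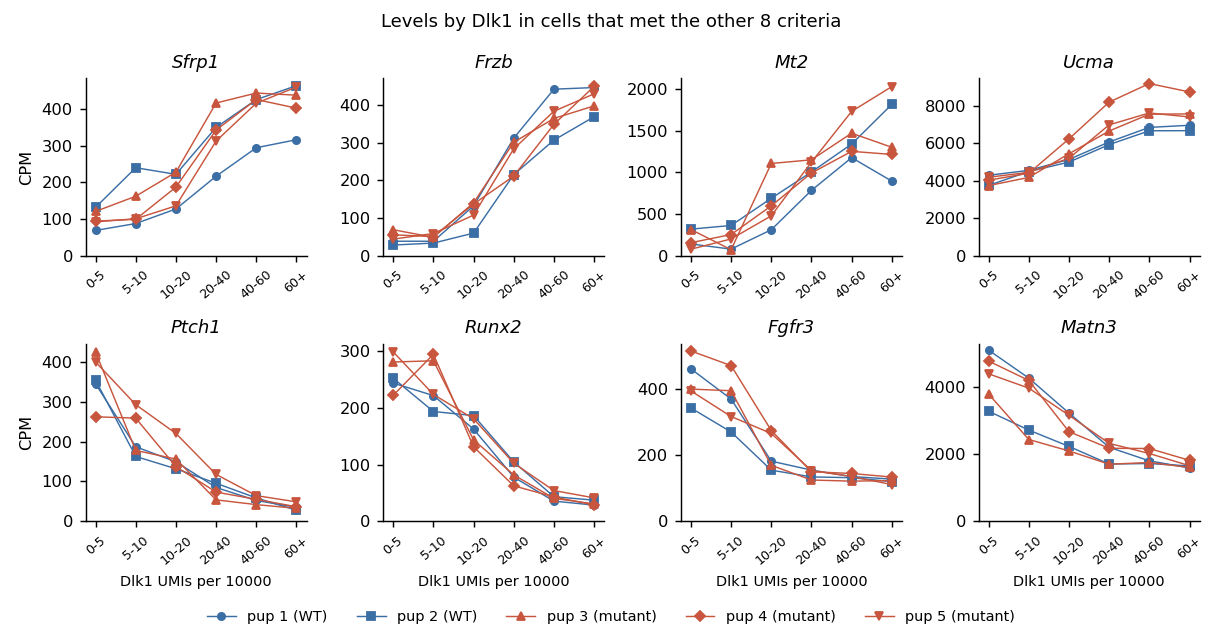
Levels in CPM of the summed cells (y axis) by Dlk1 bin (x axis, Dlk1 UMIs per 10000), for the 13634 cells that met the other 8 criteria, with 1 line per pup and colours for genotype. Sfrp1 and Frzb go up with Dlk1, and Ptch1, Runx2 and Fgfr3 go down.

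The share of members among the cells kept was 0.139% and 0.121% in the WT pups and 0.110%, 0.263% and 0.369% in the mutant pups. Their exact 95% binomial intervals, which cover counting error only, were 0.0860 to 0.212%, 0.0738 to 0.186%, 0.0680 to 0.168%, 0.193 to 0.349% and 0.275 to 0.485%. Pup 3 lay below both WT pups, and pups 4 and 5 lay above them. The mean was 0.130% ± 0.013 (SD, n = 2) in WT and 0.247% ± 0.130 (SD, n = 3) in mutant pups, a difference of 0.117 percentage points (2-sided exact permutation test, p = 0.4, with 0.1 the smallest p that 10 groupings allow). Among Col2a1-rich cells the shares were 0.234% and 0.233% in WT and 0.242%, 0.469% and 0.520% in mutant pups. The difference was 0.177 percentage points (exact permutation test, p = 0.2). Every mutant share was above both WT shares, but pups 1 and 3 held 21 members each, of 8968 and 8692 such cells. The binomial intervals were 0.145 to 0.358% and 0.142 to 0.359% in the WT pups. In pups 3, 4 and 5 they were 0.1496 to 0.369%, 0.345 to 0.623% and 0.387 to 0.683%. The interval of pup 3 held both WT shares, so pup 3 is not read as separate from the WT pups. Depth moved with genotype as well: the median kept cell had 9261 and 8521 UMIs in the WT pups and 6657, 6000 and 7016 in the mutant pups. When the rule was applied to cells thinned to 3000 UMIs, the difference (mutant minus WT) was -0.194 percentage points of kept cells (exact permutation test, p = 0.7) and -0.618 percentage points of Col2a1-rich cells (p = 0.6). A limit of 5 Dlk1 UMIs is looser at that depth, and the rule then chose 137 to 317 cells per pup. Their mean share of kept cells was 1.73% in WT and 1.54% in mutant pups, so these differences describe a larger set than the members.

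**Figure D4:**
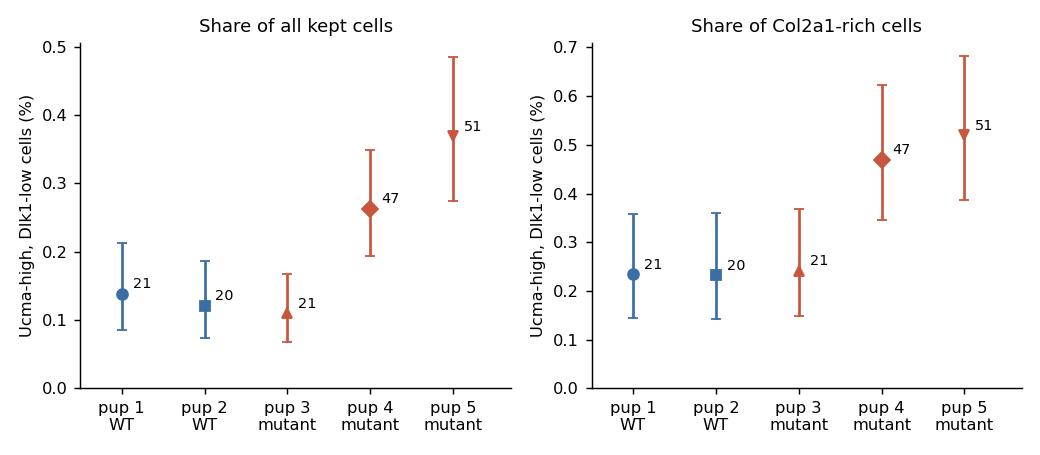
Members as a percentage of kept cells and of Col2a1-rich cells (y axes, from 0) in each pup, with exact 95% binomial intervals as bars. Pups 4 and 5 stand above the other pups, and pup 3, also mutant, is near the WT pups.

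Within the members, mutant pups were compared with WT pups to ask which genes of these cells moved with the Trpv4 allele. No gene of the 4905 left by the low-count filter passed (0%; edgeR, adjusted p under 0.05), and 192 had an unadjusted p under 0.05. DESeq2 also called 0, with 55 at an unadjusted p under 0.05. Trpv4, listed above, spanned 120 to 317 CPM in the mutant and 174 to 334 CPM in the WT pups, and the groups overlapped (log2 fold change -0.03 ± 0.38, adjusted p = 0.999, edgeR). The mutation changes a codon, so the level of Trpv4 does not test the labels.

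The gene with the lowest p was Col12a1 (mm10, chr9:79598991-79718831), which encodes a collagen that associates with fibrils. Its level was 337 and 359 CPM (WT) and 645, 874 and 693 CPM (mutant), so that every mutant pup was above both WT pups (log2 fold change 1.13 ± 0.21, adjusted p = 0.317, edgeR), but it did not pass. Without the low-count filter it passed, at 1.21 (adjusted p = 0.00121, edgeR), and without Col1a1-high cells it was 0.79 (0.993). Pups of the groups did not overlap in 953 of the 4905 genes (19.4%), 392 of them higher and 561 lower in mutant pups. A lack of overlap was thus common among all genes, and in a single gene it is not read as a result. Wif1 was at 10.9 and 7.41 CPM (WT) and 38.7, 83.8 and 30.0 CPM (mutant), with every mutant pup higher (2.48 ± 0.62, adjusted p = 0.805, edgeR). Id4, a target of BMP signalling, was at 95.04 and 100.1 CPM (WT) and 47.3, 42.9 and 31.7 CPM (mutant) and Tsc22d3, a glucocorticoid-induced gene, at 97.8 and 100.1 CPM (WT) and 228, 178 and 196 CPM (mutant). Tnn, for tenascin N, was at 5.43 and 3.71 CPM (WT) and 51.6, 55.2 and 17.6 CPM (mutant), and an unnamed gene model, ENSMUSG00000120849, at 24.4 and 55.6 CPM (WT) and 90.3, 108 and 116 CPM (mutant). The WT levels of Tnn in both pups and of Wif1 in pup 2 lay under the floor of 3 UMIs (8.15 and 11.1 CPM in pups 1 and 2), so the fitted fold changes of both genes rest on very few WT UMIs. These 6 genes had the lowest p where the mean reached 20 CPM, and none passed with the low-count filter. Without it 12 genes passed (edgeR), among them Col12a1, Wif1 (log2 fold change 2.55, adjusted p = 0.0199), Tnn (3.10, 0.0236) and ENSMUSG00000120849 (1.59, 0.0312). The other 8, singled out after their values were seen, were Col5a2, Col6a3, Kcnq5, Rbp4 and Thbs2, higher in mutant pups, and Cxcl1, Serpina3n and Hbb-bs, lower.

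**Figure D5:**
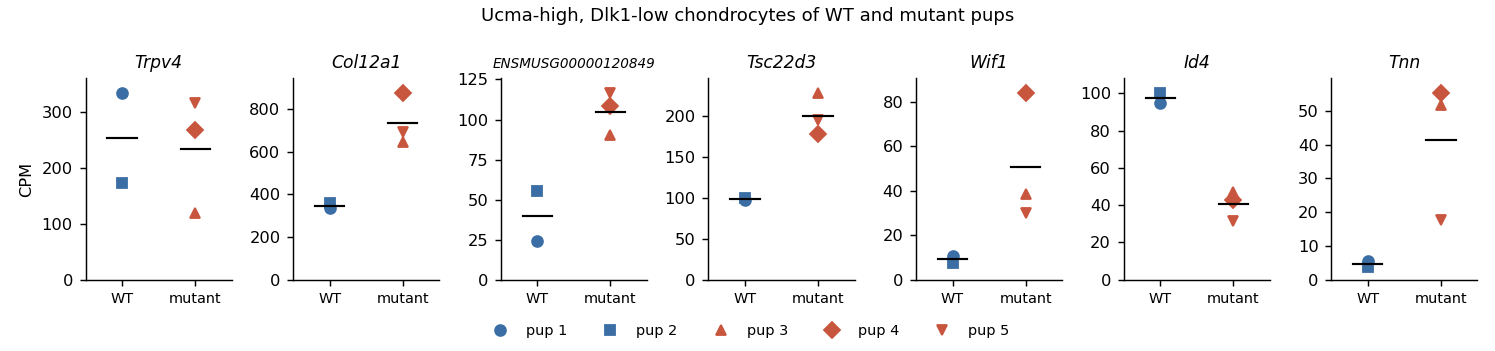
Levels in CPM (y axes, from 0) of 6 genes and Trpv4 in the member cells of each pup, WT and mutant, with 1 point per pup and a bar at the group mean. Col12a1 and Wif1 are higher in all 3 mutant pups than in both WT pups, Trpv4 overlaps, and no gene shown passed the adjusted test with the low-count filter.

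With the low-count filter no list had a called gene between the genotypes. Without it, Wif1 passed on the higher side in the Wnt antagonist and resting zone lists, and Hbb-bs on the lower side in the erythroid list. The median log2 fold change was 0.42 over 5 Wnt antagonists tested, 0.70 over 4 resting zone genes, 0.44 over 7 hypertrophy and mineralization genes, 0.75 over 5 perichondrial markers, 0.03 over 28 cartilage matrix genes, -0.03 over 23 glycolysis and hypoxia genes and 0.07 over 18 calcium and NFAT genes, beside 0.01 over all genes. The Wnt antagonist median was 1.05 without pup 1, 1.10 without pup 2, 0.28 without pup 4 and -0.14 without pups 3 and 4, over 4 to 9 genes tested. The resting zone and perichondrial medians were 1.11 and 0.89 without pup 1, 2.32 and 1.22 without pup 2, 0.89 and 1.202 without pup 3, 0.34 and -0.05 without pup 4, 0.77 and 1.15 without pup 5, and 0.14 and 0.11 without the Col1a1-high cells. The perichondrial list lay at 3916 and 4265 CPM in the WT pups and 11083, 19894 and 3824 CPM in the mutant pups, and its part in these values was not tested. Xist, transcribed from the inactive X of female cells, was at 0 and 0 CPM (WT) and 649, 556 and 0 CPM (mutant) in members and the Y-linked gene Ddx3y at 136 and 137 CPM (WT) and 0, 0 and 187 CPM (mutant), so that pups 3 and 4 stood apart from the other 3 in sex-linked transcripts, and both were mutant. With pup 1, 2 or 5 left out, 5, 8 and 4 genes passed, and the unnamed model above was among the 8 (adjusted p = 0.0318). Without pup 1 or 2 the WT group is 1 pup, whose spread is then assumed to be that of the mutant pups. Those without pup 5 were Xist, Ddx3y, Col1a1 and Col1a2. Leaving out pups 3 and 4 compared 1 mutant pup with 2 WT pups and called 2 genes, Kcnq5 and Rbp4, with the lone mutant pup assumed to vary like the WT pups. These and the other genes called with a pup left out were singled out after their values were seen.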

How the data were processed

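Single cells of growth plate cartilage from 5 littermate pups, 2 labelled WT and 3 labelled mutant, were captured by the authors on the BD Rhapsody platform, 1 library per pup. What the authors deposited are raw, unnormalized UMI counts for every gene in every cell barcode, from an alignment and counting pipeline whose version is not given in the sources used here. The build mm10 is named in the submitters' processing notes, and gene positions come from GENCODE M21 of that build. The files held 84382 barcodes and 767232274 UMIs, with 117746735 to 183322632 UMIs per pup. The number of UMIs limits the precision of each member sum, and 3 UMIs were taken as the floor of a sum.

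Cells were kept and members chosen by the limits given in the report. The members, gene lists and text genes were chosen with earlier results of these data known. UMI counts were summed per pup over members and over each set of comparison cells, and tested with edgeR 4.0.16 (TMM factors, the filterByExpr filter, quasi-likelihood fit in its robust form, p-values adjusted over all genes by Benjamini-Hochberg, threshold 0.05) in R 4.3.3. The pup was a block in comparisons between cells, because both sums come from the same animal. The pups are separate littermates, and the spread between them includes the spread between libraries. Shares were compared over the 10 groupings of pups by 2-sided exact permutation, and their binomial intervals came from scipy 1.17.1. The 10 genes of the rule were left out of the list counts and of the ranked genes. They stayed in the fits, and the counts of calls over all genes include those of them that passed. Single cells were not treated as replicates. No doublet caller was run, and the study's removal of doublets beyond the gene limit is not given in the sources used here.

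Genes named were Trpv4, the markers, the 10 largest rises and falls past the threshold with a mean of at least 20 CPM and 1 direction in all 5 pups, the 6 lowest p of the genotype comparison, and members of the gene lists. The planned comparison with cells failing on Pthlh alone could not be made, because 0 cells did. Alternatives were DESeq2 1.42.0, library size scaling, no low-count filter beyond 1 UMI, each pup left out, no block, cells thinned to 3000 UMIs, other Ucma and Dlk1 limits, a 5% mitochondrial limit for the shares, and leaving out cells with blood and vessel UMIs or with Col1a1 at 100 k or more. The Dlk1, Col1a1 and scaling alternatives and the Pthlh-positive comparison were added after the data were seen. The fitting was tested on simulated data.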

Additional observations from a re-analysis of the deposited data

How the results depend on the processing

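The 2838 calls against the Dlk1 neighbours became 934 after thinning to 3000 UMIs and 456 with Ucma at 50 k or more, which leaves fewer cells, and were 2061 to 2620 with a pup left out. Against the Ucma-low neighbours, 387 calls became 590 without a low-count filter, 167 after thinning, 233 with Ucma at 50 k, 1768 with Dlk1 under 10 UMIs, 625 with Dlk1 under 5 k, and 223 to 367 with a pup left out (223, 255 and 249 without pups 2, 3 and 4). Without the pup as a block, the counts were 2470, 187 and 1029 against the Dlk1 neighbours, Ucma-low neighbours and Pthlh-positive cells. Leaving out cells with Col1a1 at 100 k or more gave 2831, 354 and 942, in the same order. The 1298 calls against the Pthlh-positive cells became 629 with DESeq2 and 846 to 1291 with a pup left out (859 without pup 1). Between genotypes, 0 calls became 12 without a low-count filter, 2 without pups 3 and 4 and 0 to 8 with a pup left out. The cause of these changes was not tested, beyond the loss of cells or pups in the settings that remove them.

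The difference in share was reversed when the rule was applied after thinning, at -0.194 points of kept cells and -0.618 points of Col2a1-rich cells. That rule chose a larger set of cells, 137 to 317 per pup. With a pup left out the differences were 0.0564 to 0.186 and 0.122 to 0.261 points, with Dlk1 under 5 k 0.0543 and 0.0542, with Dlk1 under 10 UMIs 0.364 and 0.564, with Ucma at 20 k 0.176 and 0.244, and with Ucma at 50 k 0.0265 and 0.0394.

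Of the alternatives tried for the genes followed against the Dlk1 neighbours, 908 kept direction and side of the threshold, 57 lost the call, 2 gained it and 7 reversed. All 7 were with Ucma at 50 k (log2 fold changes of Bnip3 -0.0114, Col27a1 -0.24, Epyc -0.45, Papss2 -0.23, Pth1r -0.0758, Sox9 -0.31 and Trpv4 -0.0287). The median over all genes was -0.399 in that setting, and all of these genes but Epyc lay above it. Against the Ucma-low neighbours 605 kept both, 83 lost the call, 7 gained it and 12 reversed: Hba-a1 0.43 without blood-marker cells, Igfbp5 -0.52 and Matn3 -0.24 with Ucma at 50 k, Igfbp5 -0.50 and Ptch1 0.0866 with Dlk1 under 5 k, Matn3 -0.0461 with Dlk1 under 10 UMIs, and Trpv4 -0.00228 with library size alone, -0.0930 without a filter, -0.43 with Ucma at 50 k, -0.0346 with Dlk1 under 10 UMIs and -0.0674 to -0.0355 with a pup left out. With Ucma at 50 k the median over all genes was -0.391 against the Ucma-low neighbours. Against the Pthlh-positive cells 300 kept both and 11 lost the call. Between genotypes 83 kept both, 5 gained a call (4 without a filter, ENSMUSG00000120849 also without pup 2), and Trpv4 reversed 6 times: 0.0390 without a filter, 0.37 without pups 3 and 4, 0.0141 without Col1a1-high cells, 0.0151 with Dlk1 under 10 UMIs and 0.23 to 0.51 with a pup left out.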

Other observations

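Genes of the immediate early list, which respond to cell dissociation as well as to signals, were measured in every set. Of 22 tested, 5 rose (Ier2, Dusp1, Hspa1a, Klf2, Klf6) and 7 fell (Jund, Egr3, Ier3, Zfp36, Nr4a1, Hspb1, Klf4) in members against the Dlk1 neighbours, with a median log2 fold change of 0.10, and 9 rose and 4 fell without pup 1. Over all genes 7.93% rose and 14.6% fell in that comparison. Against the Ucma-low neighbours 3 rose (Atf3, Zfp36, Nr4a1) and 0 fell of 22 (median 0.21), but 7 rose without pup 1 and 1 without pup 2 or pup 5 (1.71% of all genes rose and 1.97% fell). Against the Pthlh-positive cells 2 rose (Dusp1, Klf6) and 6 fell (Egr3, Ier3, Zfp36, Nr4a1, Hspa1b, Klf4) of 22, with a median of -0.18, beside 12.1% and 11.8% of all genes. In the cell cycle list, Ccnb2, Birc5, Mcm5 and Hmgb2 rose and Cdk1 and Cdc20 fell of 18 tested against the Dlk1 neighbours, among cells that the rule had kept under 3 UMIs of Mki67 and Top2a together. The shares over all genes were the 7.93% and 14.6% above, and nothing particular to the list is read from its counts. None of the 4 rises passed without pup 5, and DESeq2 called 0 of the 18.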
